A study of Drosophila melanogaster with 2 samples.

Results

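The authors' thresholded list held 3587 peaks for MTF-1-GFP in fly embryos, kept by irreproducible discovery rate according to the file names. Of these, 611 (17.0%) had their summit in an intron between 1 and 5 kb from the nearest annotated transcript start. A peak was counted here when its summit lay more than 1000 bp and at most 5000 bp from a start of any gene type, inside a transcript and in no exon. Within the list the rule used position alone, and no value of signal, motif or replicate support. Base composition differed between position classes, so comparisons of motifs with other listed peaks were not free of position. Mean summit GC was 37.7% in the group and 41.4% within 1 kb of a start. The list itself had passed the authors' threshold before, so high signal and presence in the replicates were in part set by that selection. MTF-1 is an activator with zinc fingers that responds to zinc, cadmium and copper and binds metal response elements, whose core letters are TGCACNC or TGCGCNC, in the promoters of metallothionein and metal transport genes. Introns close to a start are a common place for enhancers in the compact fly genome. Forkhead proteins, a separate family that includes foxo, fkh and CHES-1-like, bind DNA through the letters TAAACA and close variants of them.

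The material was whole embryos of both sexes, collected from 0 to 24 h after laying, from a transgenic Drosophila melanogaster line that stably carries MTF-1 with GFP at its C-terminal end. Chromatin fragments of 200 to 800 bp were immunoprecipitated in 2 biological replicates, numbered 2 and 4. The free-text description of both samples speaks of an input control, whereas the antibody label names MTF-1 and the assay is given as transcription factor ChIP-seq; both were treated as immunoprecipitates. The labels name no untagged line, no added metal and no second genotype, so signal from a whole embryo cannot be assigned to a tissue, and the part of chromatin that any antibody would recover was not tested. The authors deposited 30000 relaxed regions for each replicate and for the pooled reads, with the shorter thresholded list; read depth is not given in the sources used here. Peaks are ranked by the authors' pooled signal, 1 being the strongest of the 3587. Background regions are the 14859 pooled regions with signal below the pooled median and no overlap with a thresholded peak; 3087 of them met the same position rule. Tests count regions, which are not biological replicates, and neighbouring regions share chromatin.

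The DNA under the strongest intronic summits did not share a single pattern. The windows below are 101 bases centred on the summit (dm6 coordinates, RefSeq sequence, on the strand of the host gene), shown because these peaks lead the group or carry the letters discussed later. Capitals mark a metal response core or the letters TAAACA or GCAAACA, read on either strand.
CG11050 (chr2L:6612662-6612762, plus strand): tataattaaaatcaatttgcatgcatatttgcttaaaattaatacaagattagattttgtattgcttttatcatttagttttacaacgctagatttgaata
ush (chr2L:481045-481145, plus strand): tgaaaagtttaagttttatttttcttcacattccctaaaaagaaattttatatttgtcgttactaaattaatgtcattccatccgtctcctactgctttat
Pax (chr2L:19406576-19406676, minus strand): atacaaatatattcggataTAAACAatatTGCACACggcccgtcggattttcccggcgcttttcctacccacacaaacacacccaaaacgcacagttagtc
cno (chr3R:5215491-5215591, minus strand): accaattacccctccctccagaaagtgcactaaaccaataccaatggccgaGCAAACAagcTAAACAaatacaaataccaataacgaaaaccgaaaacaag
ttk (chr3R:31717675-31717775, plus strand): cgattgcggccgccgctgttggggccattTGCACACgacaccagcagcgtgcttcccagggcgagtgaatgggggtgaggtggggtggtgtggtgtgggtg
Trl (chr3L:14759461-14759561, minus strand): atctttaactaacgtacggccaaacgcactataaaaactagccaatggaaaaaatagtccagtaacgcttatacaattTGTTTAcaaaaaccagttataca
Rbfox1 (chr3L:10519080-10519180, plus strand): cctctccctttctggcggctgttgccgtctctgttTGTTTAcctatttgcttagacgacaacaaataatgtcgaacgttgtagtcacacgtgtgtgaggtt
The windows in CG11050 and ush were AT-rich and held none of these letters, although these were the strongest peaks of the group. Pax, which encodes paxillin, an adaptor at cell-matrix adhesions, held TAAACA and the TGCACAC form of the core a few bases apart. In cno, the afadin homologue of adherens junctions, GCAAACA and TAAACA stood side by side. The window in ttk, a BTB zinc-finger repressor, was GC-rich and held TGCACAC.

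The signal of these peaks was high in both replicates. The peak in CG11050, in an intron of 140 bp, had a pooled signal of 1291 and ranked 13 of 3587; its signal was 411 in replicate 2, where it ranked 36, and 927 in replicate 4, where it ranked 7. The peak in the first intron of ush, a FOG-family partner of GATA factors, had a pooled signal of 1218 with 453 in replicate 2 (rank 27) and 862 in replicate 4 (rank 11). Pax had a pooled signal of 1176 with 547 in replicate 2 (rank 12) and 654 in replicate 4 (rank 27). These 3 peaks, and the one in cno with 1175, stood at the head of both replicate lists. The peak in cno had 546 in replicate 2 (rank 13) and 647 in replicate 4 (rank 29). The next of the 15 strongest were in CG32772 (signal 976), ttk (838), Tre1, a G-protein-coupled receptor that guides germ cells (778), Trl, the GAGA factor (776), and the Tousled-like kinase gene Tlk (730). The last 6 of the 15 lay in CG9837, ush again, CG12769, the transcription factor gene NFAT, the MAP kinase kinase kinase gene Raf and the splicing regulator gene Rbfox1, with signals between 577 and 637. Of the 15, 8 lay in the first intron of the longest transcript, 5 held TAAACA within 50 bp of the summit and 2 held a metal response core.

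By their share of the 1793 strongest peaks, intronic peaks 1 to 5 kb from a start did not differ from the rest of the list beyond the test. Their signal ran from 104 to 1291 with a median of 158 and quartiles of 124 and 229. The median was 155 for the 2219 peaks within 1 kb of a start and 143 for the 352 intronic peaks beyond 5 kb. Among the 1793 strongest peaks of the list stood 319 of 611 intronic peaks (52.2%), against 49.5% of all other peaks (two-sided Fisher's exact p = 0.231). Of the 100 strongest peaks, 11 were in the group, which made up 17.0% of the list. The highest signal was 1291 in the group and 16205 within 1 kb of a start. The top of the list was not tested.

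Both replicates' lists held most of these peaks, with fewer in that of replicate 2. The thresholded list was ranked on pooled signal and depth is unknown, so this does not rank the replicates in quality. In all, 371 of 611 (60.7%) overlapped one of the 3587 strongest regions of each replicate, against 58.6% of all other peaks (Fisher's exact p = 0.343). Replicate 2's list lacked 17 of the peaks and placed 168 more below its strongest 3587. Replicate 4's list lacked 1 and placed 77 below that mark. The median rank was 2018 in replicate 2 (n = 594) and 1634.5 in replicate 4 (n = 610). The base composition of the replicates also differed: within the same position class, the strongest regions of replicate 2 alone averaged 41.3% GC at the summit, and those of replicate 4 alone 35.6%, beside flanks of 40.5% and 40.7%. Results on sequence are therefore given for each replicate alone as well. For a replicate alone, its own 3587 strongest regions took the place of the thresholded list. Of these, 620 met the position rule in replicate 2 and 645 in replicate 4. These sets are not the 611 peaks.

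**Figure D1:**
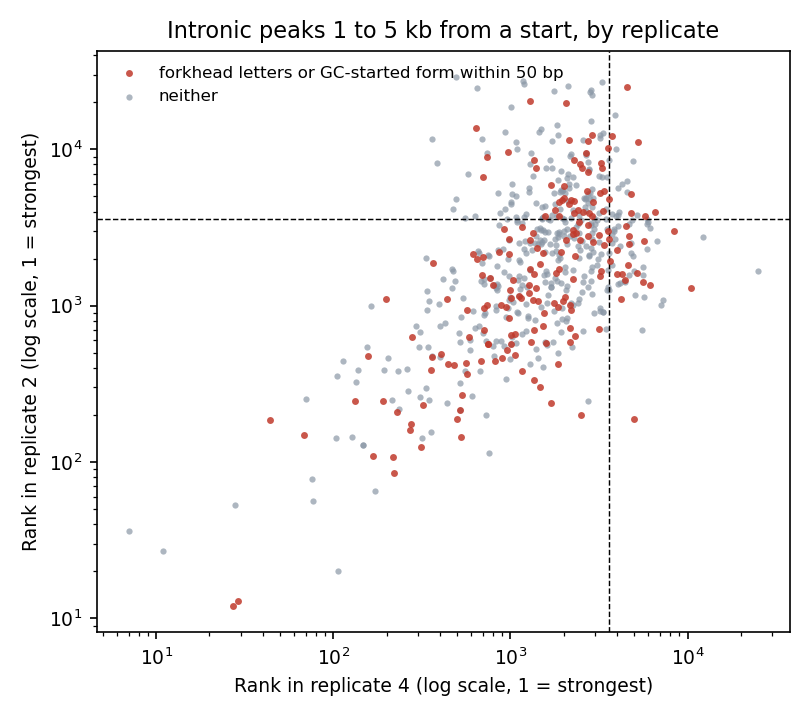
Rank of each intronic peak in replicate 4 (x axis) and replicate 2 (y axis), both on log scales with 1 the strongest; each point is a peak found in both lists, red where TAAACA (forkhead letters) or GCAAACA (the GC-started form) lay within 50 bp of the summit, and the dashed lines mark rank 3587. The strongest peaks lie near the diagonal, while more points lie above the horizontal line (replicate 2) than to the right of the vertical one (replicate 4).

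Within introns, peaks were denser near the start. The rule was met by 20.1 Mb of sequence, which gave 30.3 peaks per Mb, against 12.4 per Mb in introns beyond 5 kb, 70.3 within 1 kb of a start, 9.81 outside transcripts and 3.71 in exons. Density was 42.2 per Mb at 1000 to 1500 bp and 22.2 per Mb at 4500 to 5000 bp. Background regions of the same class were also densest in the nearest bin, with 166 per Mb, and reached 136 per Mb in the farthest. Signal did not follow distance in the same way: the median was 154 in the nearest bin and 179 in the farthest. Around the lower limit, par-1 at 1001 bp and Oda at 1009 bp fell inside the rule, while tai at 1000 bp and Mipp1 at 997 bp fell outside. Around the upper limit, tara at 4995 bp and heca at 4987 bp fell inside, while CG46429 at 5005 bp and Eip75B at 5006 bp fell outside. By chromosome arm, X held 123, 3R 147, 2R 121, 3L 115 and 2L 105 of the peaks, and chromosome 4 held 0, from 0.267 Mb that met the rule. The share on X was 20.1%, against 17.3% of background regions of the same class (Fisher's exact p = 0.105); with replicate 4 alone the difference was 4.24 points (Fisher's exact p = 0.0132).

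**Figure D2:**
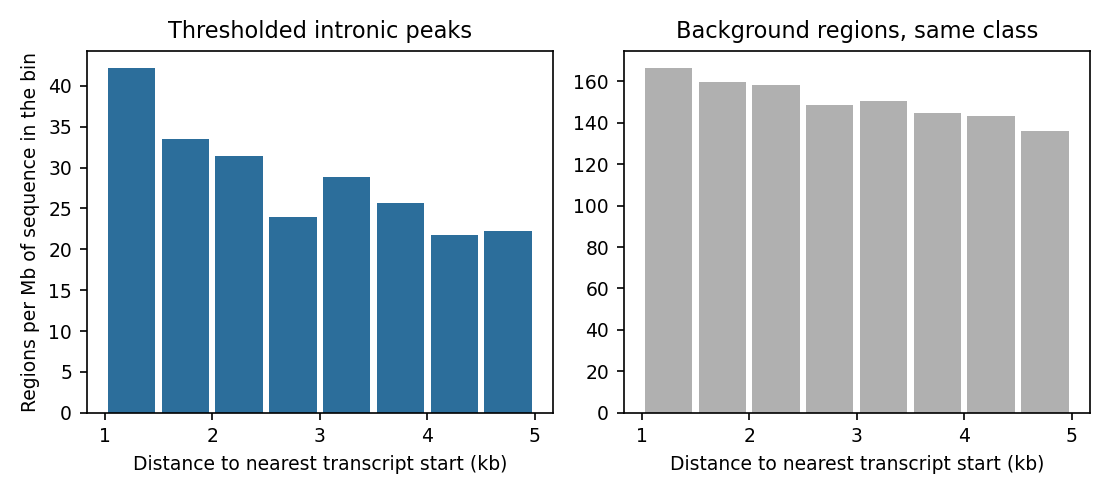
Regions per Mb of sequence that meets the rule, in bins of 500 bp of distance to the nearest transcript start, for thresholded intronic peaks (left) and for background regions of the same class (right). The peaks go from 42.2 per Mb in the nearest bin to 22.2 in the farthest, and the background from 166 to 136; the y axes differ and both begin at 0.

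These peaks lay in first introns and in genes with a bound promoter more often than weak regions of the same class. Counting introns in the longest transcript of the host, 331 of 611 (54.2%) were in the first, against 46.1% of the 3087 background regions (Fisher's exact p = 0.000324). The host gene had another thresholded peak within 1 kb of one of its own starts for 366 (59.9%), while 44.5% of the weak regions were in such a host (Fisher's exact p = 3.77e-12). Peaks in 1 host share much of this outcome, and 282 of the 611 shared a host with another. The test counted them as separate, so its p-value overstates the evidence. Another thresholded peak of any kind lay within 5 kb of 396 (64.8%), against 34.7% of intronic peaks beyond 5 kb (Fisher's exact p = 1.26e-19) and 38.6% of background regions (p = 1.38e-32), the last comparison having been added after the data were seen. By the rule every peak of the group has a start within 5 kb and the intronic peaks beyond 5 kb have none, so the rule itself bears on that comparison; background regions were held to the same rule. Peaks of the group within 5 kb of each other were each counted through the other, whereas background regions were counted only through thresholded peaks. The differences in this paragraph held with each replicate alone and among the 1793 strongest peaks.

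Among the motifs searched, the letters of the forkhead family differed most between these summits and the DNA beside them. TAAACA lay within 50 bp of the summit in 135 of 611 peaks (22.1%) and in 59 of 611 flanks (9.66%), a flank being a window of the same length centred 500 bp farther from the nearest start (two-sided exact McNemar test, adjusted p = 4.80e-08 over 32 motifs). It was the 1 motif of 32 (3.12%) called higher at summits, and 0 were called lower. Against background regions of the same class, 11.5% of which held it, the difference was 10.6 percentage points (Fisher's exact, adjusted p = 8.50e-10). In the whole thresholded list 17.2% of peaks held it. With replicate 2 alone (620 regions of its own list) the excess over flanks was 9.03 points. With replicate 4 alone (645 regions of its own list) it was 9.30 points.

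Set against other peaks, in comparisons added after the motif list had been read, TAAACA was more frequent in the intronic group than near starts. Peaks within 1 kb of a start held it in 14.6% of cases, below the intronic group (Fisher's exact p = 1.82e-05), and all other thresholded peaks in 16.2% (p = 0.000637). Intronic peaks beyond 5 kb held it in 25.6% (Fisher's exact p = 0.236), a difference of -3.47 points for the group that did not pass the test. Mean summit GC was 41.4% within 1 kb of a start, 37.7% in the group and 37.6% in introns beyond 5 kb. The part of base composition in these differences was not tested. A related word beginning with GC, GCAAACA, was noticed in the summit windows and is described without a test. It lay in 81 of 611 summit windows (13.3%, 95% exact binomial interval 10.7 to 16.2%) and in 3.60% of flanks. The excess over flanks was 11.6 points with replicate 2 alone and 6.05 points with replicate 4 alone. It lay in 4.47% of background regions of the same class, in 13.4% of intronic peaks beyond 5 kb (interval 9.98 to 17.4%) and in 4.42% of peaks within 1 kb of a start (interval 3.60 to 5.36%). For comparison, GTAAACA lay in 9.66% of the intronic windows, in 3.53% of background regions and in 5.72% of peaks within 1 kb. In all, 189 intronic peaks (30.9%) held TAAACA or GCAAACA, and 27 held both.

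**Figure D3:**
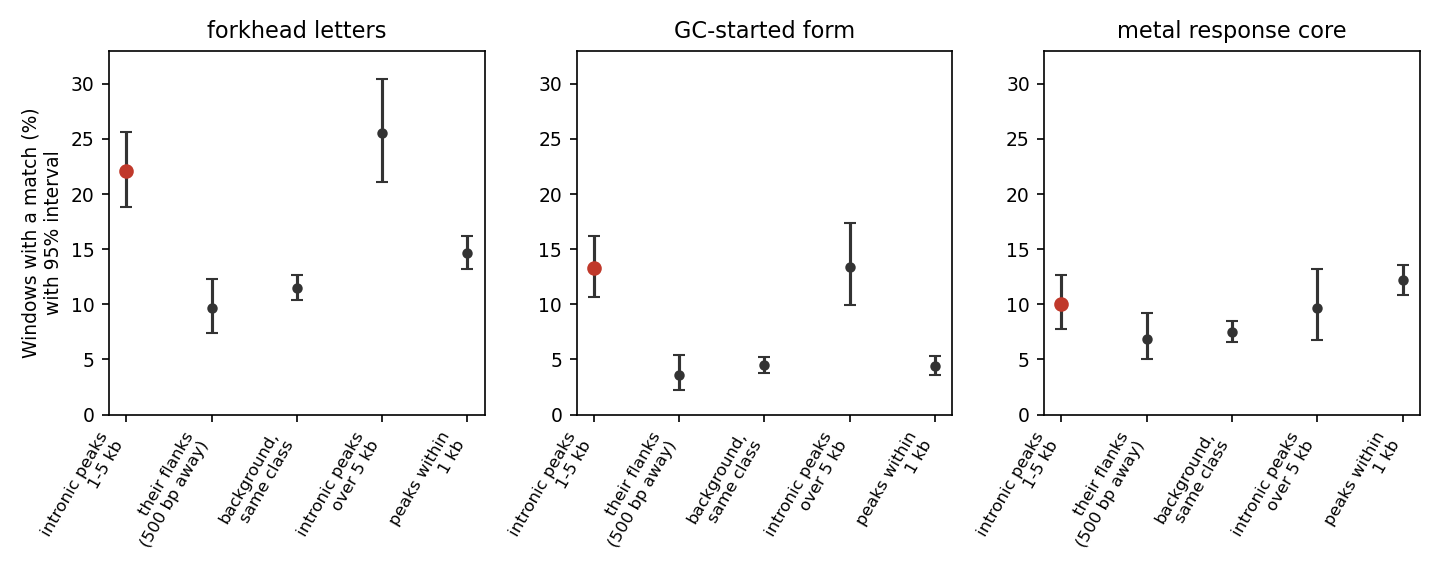
Share of windows of 101 bases (y axis, %, with 95% exact binomial intervals) that hold TAAACA (forkhead letters), GCAAACA (the GC-started form) or a metal response core, in intronic peaks 1 to 5 kb from a start (red, left), their flanks, background regions of the same class, intronic peaks over 5 kb and peaks within 1 kb. For TAAACA and GCAAACA the intronic classes stand at 22.1% and 25.6%, and at 13.3% and 13.4%, above the other sets; for the core the shares lie between 6.87% and 12.2%.

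Several windows with repeated matches show how these letters are arranged. They come from aos, the secreted inhibitor of the EGF receptor, from CG32066, from the autophagy gene Atg16 and from CG42238, and are printed as above.
aos (chr3L:16480559-16480659, minus strand): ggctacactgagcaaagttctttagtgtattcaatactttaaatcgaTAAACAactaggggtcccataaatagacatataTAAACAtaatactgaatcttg
CG32066 (chr3L:10656946-10657046, minus strand): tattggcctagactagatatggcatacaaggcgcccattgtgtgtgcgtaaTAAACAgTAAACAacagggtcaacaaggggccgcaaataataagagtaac
Atg16 (chr3R:29831077-29831177, minus strand): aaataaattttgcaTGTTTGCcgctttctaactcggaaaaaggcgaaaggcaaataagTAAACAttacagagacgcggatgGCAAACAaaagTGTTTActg
CG42238 (chr2L:21037844-21037944, minus strand): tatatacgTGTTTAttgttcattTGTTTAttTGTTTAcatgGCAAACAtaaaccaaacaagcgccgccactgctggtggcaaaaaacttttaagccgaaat
The window in CG42238 held 3 copies of TAAACA and a GCAAACA within a short stretch. The most copies, 5, lay in the window of the peak in sbb (rank 420; ranks 488 and 404 in replicates 2 and 4), a gene named here for that count and not shown. The peak in CG42238 had a pooled signal of 268 and ranked 1578 in replicate 2 and 692 in replicate 4. The peak in aos, with 2 copies, had a signal of 420 and ranked 478 and 158 in replicates 2 and 4. Across the group 28 peaks held 2 or more copies. Peaks with TAAACA had a median signal of 168, against 156 for those without. The median rank was 1617 with TAAACA and 2101 without in replicate 2, and 1437.5 with and 1680.5 without in replicate 4. For GCAAACA it was 1452 with and 2145 without in replicate 2, and 1855 with and 1613 without in replicate 4.

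The matches were concentrated at the summits. TAAACA occurred 2.82 times per kb within 50 bp of the summit and 1.19 times per kb between 200 and 500 bp away, a ratio of 2.37. GCAAACA occurred 1.57 and 0.507 times per kb, a ratio of 3.10. The metal response core occurred 1.19 and 0.927 times per kb, a ratio of 1.29. Base composition moved with these letters: summits averaged 37.7% ± 9.03 GC (SD, n = 611) and flanks 40.5%, while background regions of the same class averaged 42.9%, and the part of composition in the TAAACA result was not tested in full. Among the 266 peaks whose summit had at least the GC of its flank, TAAACA was in 22.9% of summits and 12.4% of flanks (exact McNemar p = 0.000914), a comparison added afterwards; with replicate 2 alone this difference was 3.36 points (p = 0.266), and with windows of 100 bp either way it was 5.82 points (p = 0.152). In the same 266 peaks GCAAACA was in 17.7% of summits and 3.38% of flanks.

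**Figure D4:**
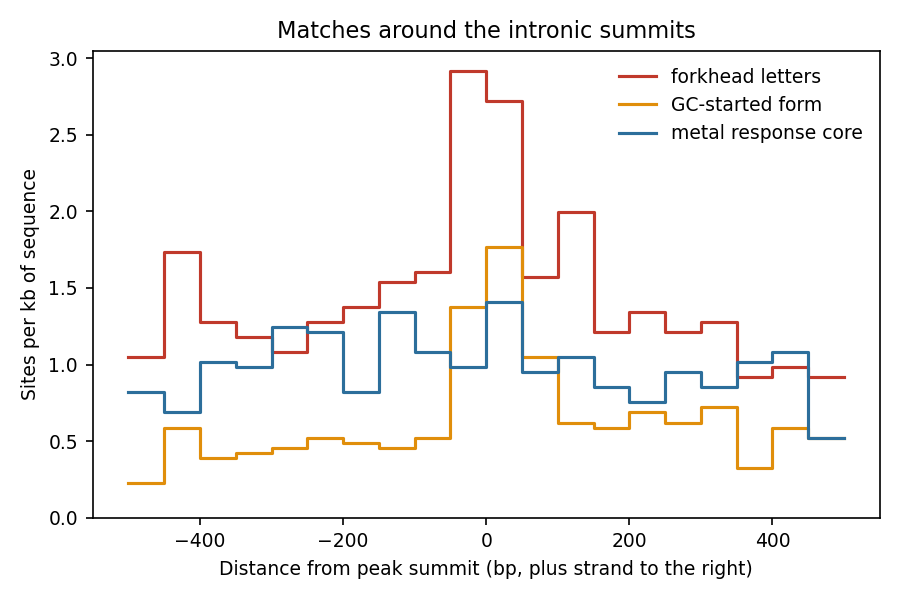
Matches per kb of sequence (y axis, from 0) in bins of 50 bp around the summits of the intronic peaks (x axis, distance from the summit in bp), for TAAACA (forkhead letters), GCAAACA (the GC-started form) and the metal response core. Within 50 bp the lines average 2.82, 1.57 and 1.19 per kb, against 1.19, 0.507 and 0.927 per kb between 200 and 500 bp.

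A count of all 6-letter words gave related words. Of 2080 6-mers, joined with their reverse complements, 22 (1.06%) were more frequent at summits than in flanks and 4 (0.192%) less frequent (exact McNemar, Benjamini-Hochberg adjusted p under 0.05). With replicate 2 alone the counts were 26 and 1, and with replicate 4 alone 40 and 15. The leading word was TAAATA, in 30.3% of summits and 15.5% of flanks (exact McNemar, adjusted p = 9.25e-07), with TAAACA next. The word CAAACA was in 23.7% of summits and 11.9% of flanks (exact McNemar, adjusted p = 4.75e-05), and GCAAAC in 17.0% and 7.53% (adjusted p = 0.000182). The AT-only words AATATT and AAATAT were also among the first 5. AGTATG was in 6.38% of summits and 1.47% of flanks (exact McNemar, adjusted p = 0.00226). Words rich in G and C led the 4 less frequent ones. Against background regions of the same class, 3 of the 32 motifs (9.38%) were higher and 1 (3.12%) lower. Beside TAAACA, the higher ones were TGCACAC, in 3.93% of intronic peaks and 1.62% of background regions, and the TATA letters TATAAA, in 15.4% and 10.6% (Fisher's exact, adjusted p = 0.0107 for each). The lower one was TGANNNNGC, the letters of the antioxidant element, in 12.1% and 17.1% (Fisher's exact, adjusted p = 0.0174). Flanks held TGCACAC in 2.45% of cases, the TATA letters in 12.9% and the antioxidant letters in 12.4%. Apart from the forkhead letters, none of these motifs was called against flanks. The counts against background were 4 higher and 0 lower with replicate 2 alone, and 2 and 1 with replicate 4 alone. Mean GC was 42.9% in background regions and 37.7% at summits, and its part in these calls was not tested.

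The element MTF-1 is known for was uncommon at these summits. A core, TGCACNC or TGCGCNC on either strand, lay within 50 bp of 61 of 611 summits (9.98%) and in 42 flanks (6.87%), and the difference of 3.11 points did not pass the test (exact McNemar p = 0.0671). In the whole thresholded list 11.4% of peaks held a core. With replicate 2 alone the excess over flanks was 4.19 points (exact McNemar p = 0.0157), and with replicate 4 alone it was 0.155 points (p = 1). Against background regions of the same class, 7.52% of which held a core, the share was higher (Fisher's exact p = 0.0487) by 2.47 points. That difference was 4.65 points with replicate 2 alone (Fisher's exact p = 0.000285) and 4.93 points with windows of 100 bp either way (Fisher's exact p = 0.00237). It was 0.322 points among the 1793 strongest peaks (Fisher's exact p = 0.824), 1.73 points against all pooled regions off the thresholded peaks (Fisher's exact p = 0.145) and -0.203 points with replicate 4 alone (Fisher's exact p = 0.934). Peaks within 1 kb of a start held a core in 12.2% of cases (Fisher's exact p = 0.155) and intronic peaks beyond 5 kb in 9.66% (p = 0.911). Among the 1793 strongest peaks the intronic share with a core minus that of all other peaks was -3.83 points (Fisher's exact p = 0.0483). Peaks with a core had a median pooled signal of 142, against 159 for those without, but the replicates differed in order: the median rank was 1699 with a core and 2066.5 without in replicate 2, and 2039 with and 1570 without in replicate 4. By letters, TGCACAC was in 24 summits and 15 flanks and TGCGCAC in 11 summits and 2 flanks, whereas TGCACTC was in 9 and 10 and TGCGCCC in 7 and 7. TAAACA and a core lay together in 10 peaks.

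Only 7 of the 611 peaks held 2 or more cores within 50 bp, with matches on each strand counted separately. In some of these, such as the peak in Dys ranked 1356, the 2 matches overlapped. In CG1677, 2 of the 3 matches overlapped, while those in sky and Prm stood apart. The windows below show the strongest single-core peak after Pax and ttk, in the Arf exchange factor gene Efa6, and 3 with several cores, in CG1677, in sky, which encodes a Rab GTPase-activating protein of synapses, and in the paramyosin gene Prm, a muscle thick filament component.
Efa6 (chr3R:22589557-22589657, plus strand): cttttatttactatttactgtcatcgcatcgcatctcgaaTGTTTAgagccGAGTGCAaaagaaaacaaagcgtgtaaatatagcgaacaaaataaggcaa
CG1677 (chrX:7293709-7293809, minus strand): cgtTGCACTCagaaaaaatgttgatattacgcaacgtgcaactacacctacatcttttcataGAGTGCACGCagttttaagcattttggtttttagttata
sky (chr2L:20897100-20897200, minus strand): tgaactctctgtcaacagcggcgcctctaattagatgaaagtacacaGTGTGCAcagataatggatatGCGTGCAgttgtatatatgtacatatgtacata
Prm (chr3L:8741349-8741449, minus strand): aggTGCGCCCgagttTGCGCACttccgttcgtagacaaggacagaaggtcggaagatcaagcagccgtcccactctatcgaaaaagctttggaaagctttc
The peak in Efa6 had a pooled signal of 440 and ranked 161 in replicate 2 and 271 in replicate 4. The window in CG1677 held 3 cores and had a pooled signal of 247, but the replicates differed: it ranked 495 in replicate 4 and 28942 in replicate 2. The peak in sky had a signal of 232, with ranks of 573 and 1072 in replicates 2 and 4, and the one in Prm had 133, with ranks of 2286 and 2463. The windows with several cores were thus weaker than those in Pax, ttk and Efa6. The other strong single-core peaks lay in egh, a glycosphingolipid glycosyltransferase gene (signal 232), nAChRalpha4, a nicotinic receptor subunit gene (216), sima, the fly HIF-1 alpha gene (211), and in Snp (251) and atos (219).

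The group spread over many genes, with repeats in some of them. The 611 peaks lay in 447 host genes, of which 437 were protein-coding; 329 hosts had 1 peak, 93 had 2 and 25 had 3 or more, the last holding 96 peaks. CHES-1-like, itself a forkhead gene, CG1677 and the BMP-pathway zinc-finger gene shn had 6 peaks each, and ush and CG5953 had 5 each. The 6 peaks in CHES-1-like had signals between 111 and 296 and 1 of them held TAAACA. Hosts with 4 were Tlk, Dys (dystrophin), CG46385, jing, atos, siz, CG43658 and the bZIP gene Pdp1. Hosts with 3 were Pax, NFAT, Raf, EcR, Kdm2, the ETS gene pnt, bun, the Hox gene lab, mbc, msn, apt and Src64B. A promoter peak was present in 22 of the 25. The nearest start belonged to the host in 474 cases and to another gene in 137.

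Of 6851 protein-coding genes with sequence that meets the rule, 459 (6.7%) lay over at least 1 of the peaks, and these had a median of 6.84 kb of such sequence, against 0.488 kb for the others, so counts over gene lists move with length. Lists were described by counts and by peaks per Mb, beside 30.3 per Mb in all, and no list was tested. Among metal storage and transport genes 1 of 21 had an intronic peak: the copper pump gene ATP7, with 2 peaks of signal 147 and 135, ranked 1929 and 2224. Those 2 peaks gave 54.3 per Mb, above the density in all, but this rests on 1 gene and only 36.9 kb of sequence that meets the rule. By genes the share was 4.76%, below the 6.7% of all such genes. Of the 2 peaks in ATP7, 1 held a metal response core within 50 bp: TGCACAC lay at the summit of the peak ranked 2224. ZnT35C, ZnT63C, Ctr1A, Mvl and MTF-1 itself were among the 20 with none. The metallothionein genes MtnA to MtnF had no sequence that meets the rule and so could not be hosts. Of ecdysone and juvenile hormone response genes 8 of 21 had one, at 61.7 per Mb, led by ImpL2 (rank 226), the nuclear receptor gene Hr4 (247) and the ecdysone receptor gene EcR (304). Of EGFR and Ras genes 6 of 18 had one, at 89.7 per Mb, led by Raf (118), aos (260) and pnt (571). Of BMP and activin genes 4 of 15 had one, at 111 per Mb, with the most in shn, and wit and tkv, 2 receptor genes, next (ranks 944 and 1134). Of Hippo and growth genes 4 of 12 had one, at 105 per Mb: ex, Diap1, kibra and wts, ranked between 903 and 3192. Of Polycomb, Trithorax and remodelling genes 4 of 25 had one, at 142 per Mb: trx, Mi-2, ph-p and kis, with 2 each.

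The remaining lists lay on both sides of the overall density. BTB and zinc-finger regulators had 6 of 19, led by ttk, Trl and rib. Wnt and Hedgehog genes had 5 of 19, led by ptc, Notum and fz. Actin cytoskeleton and junction genes had 8 of 30, led by tsr, Moe and chic. Muscle genes had 6 of 27, led by kirre, mbc and Mef2, and gut, fat body and blood genes 3 of 16, ush, GATAd and Hnf4. Segmentation and Hox genes had 3 of 16, lab, Antp and Abd-B; trachea genes 3 of 14, sim, grh and rib; and Notch genes 2 of 14, mam and neur. Axon guidance genes had 8 of 29 at 23.7 per Mb, led by NetB, fra and Sema1a, and RNA-binding genes 6 of 27 at 18.7 per Mb, led by Rbfox1, bru2 and shep. Insulin and TOR genes had 1 of 17, InR (rank 366), neural regulators 2 of 10, grh and pros, and glutathione and redox genes 2 of 9, Ggt-1 and cnc. Heat shock genes had 1 of 4, Hsp83 (rank 375), over only 2.43 kb of sequence. The sparsest was ion channels and synapse, with 1 peak in 191 kb, in KCNQ, at 5.24 per Mb.

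**Figure D5:**
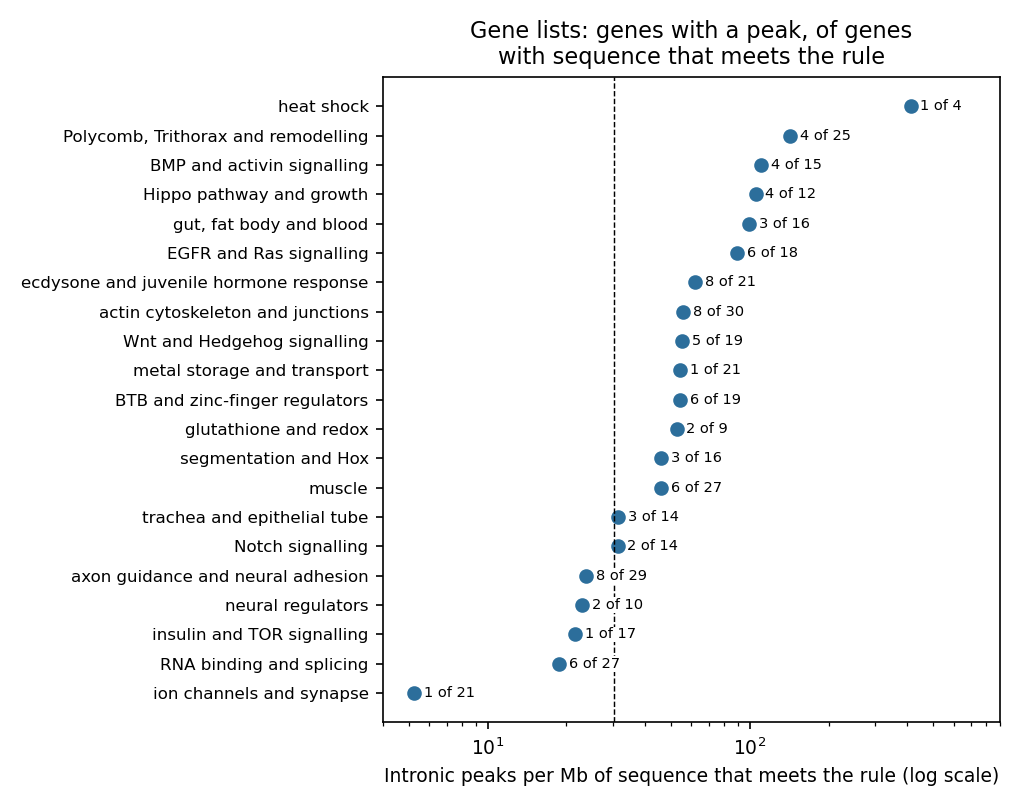
Intronic peaks per Mb of sequence that meets the rule (x axis, log scale) for each gene list, with the number of its genes that hold a peak beside each point, out of those with such sequence; the dashed line is the density of 30.3 per Mb over all such sequence. The points run from 5.24 per Mb (ion channels and synapse) to 142 (Polycomb, Trithorax and remodelling), apart from heat shock, which rests on 1 peak in 2.43 kb.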

How the data were processed

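Regions of MTF-1-GFP ChIP were read from the authors' deposited peak lists: 30000 relaxed regions per replicate and pooled, and the 3587 regions kept by irreproducible discovery rate, per the file names. The signal value is the authors' pooled or per-replicate score, and the deposited −log10 q-value ran from 2.57 to 3.66 over the group, too coarse to rank. Alignment was to dm6, per the labels. Neither labels nor headers name the aligner, peak caller, threshold or read depth, so no precision from depth can be given and exact binomial intervals cover counting error only. Summits were classed with Ensembl release 115 (BDGP6.54, the dm6 assembly) without transposable elements. Windows of 101 bases were read from the RefSeq genome. Tests were two-sided exact McNemar and Fisher's exact tests (scipy 1.17.1), with Benjamini-Hochberg adjustment over 32 motifs or 2080 6-mers; the scripts were tested on simulated data.

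The members, motifs and gene lists were chosen with earlier results of these data known. Genes named were hosts of the 15 strongest peaks, of the 10 strongest with a core, with 3 or more peaks, the strongest 3 per gene list, and peaks next to the distance limits; windows printed beyond the strongest were picked for several matches after these were counted. Alternatives tried are another window, flank side, the strongest peaks alone, overlap, background, annotation and each replicate alone.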

Additional observations from a re-analysis of the deposited data

How the results depend on the processing

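The TAAACA excess over flanks, over background regions and over peaks within 1 kb of a start, the first-intron share, the promoter-peak share and the nearby-peak share kept their direction and their side of the threshold under every alternative run for them. The metal response core did not. Each replicate alone gave a core excess over flanks of 0.155 to 4.19 points, and over background regions of -0.203 to 4.65 points. Among the 1793 strongest peaks by signal the core excess over background was 0.322 points, and the core shares minus those of all other peaks, of intronic peaks beyond 5 kb and of peaks within 1 kb were -3.83, -0.555 and -4.15 points. With all pooled regions off the thresholded peaks as background the core excess was 1.73 points. TAAACA in peaks with summit GC at or above the flank had an excess of 5.82 points with windows of 100 bp either way and 3.36 to 10.3 points with the replicates taken singly. GCAAACA minus its share in intronic peaks beyond 5 kb was 3.38 points among the 1793 strongest and -0.604 to 0.492 points with single replicates. The share on X exceeded background by 2.01 to 4.24 points with single replicates. The share among the 1793 strongest minus that of others was -2.05 to 4.26 points by the ranks of single replicates. Density was 15.8 per Mb for the 1793 strongest, which holds fewer peaks by construction. Windows of 100 bp either way gave 10 less frequent 6-mers and 5 higher motifs against background. Single replicates gave 26 to 40 more frequent and 1 to 15 less frequent 6-mers, and 0 to 1 lower motifs against background. Where no value above shows it, the cause was not tested. Samples could not be paired because the 2 replicates belong to 1 group, and the paired tests above pair each summit with its own flank. Only 2 replicates and unknown depth limit all shares.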
